A study of Homo sapiens with 8 samples.

Results

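The RNA of PC3 cells given bisamide for 48 h was set against RNA of mock PC3 cells on 1 two-colour Agilent array, 1 of the 8 arrays of the study. The members are all genes of that array that lay well above background in both channels by the scanner's flag, which left 19020 of 43317 genes. These are called measured here. Values are given as the log2 of treated over mock RNA, called the ratio, so that 0 means no difference from mock and 1.0 a doubling. PC3 is a prostate carcinoma line, and both RNAs of the array came from it. The label for the treated cells was bisamide48H, which the labels list under transfection although bisamide is a small molecule, used at 5 nM. Mock cells carry the label no transfection. A second array held bisamide24H in PC3 against mock, and the other 6 held cells transfected with a microRNA (miRNA) strand against mock. Of these, PC3 cells had received miR-125b-1-3p, and C4-2, another prostate cancer line, miR-199-3p. The kidney cancer line 786-O was used once with miR-532-5p and once with miR-532-3p. The bladder cancer line T24 was used once with miR-140-5p and once with miR-140-3p.

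Every group had 1 array, mock RNA was always in the Cy3 channel, and no array had swapped dyes. No p-value could therefore be had, and a difference between 24 h and 48 h cannot be told apart from a difference between 2 cultures or 2 hybridisations. As a background, the lowest to the highest ratio of the same gene on the 6 miRNA arrays is given, called the miRNA range, since these arrays share the dye orientation but not the compound. Whether the mock cells received the solvent, and whether both bisamide arrays shared 1 mock culture, is not given in the sources used here.

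HSF1 is the transcription factor that switches on chaperones after heat shock, and bisamide is known as a compound that blocks this pathway. It also binds pirin, the product of PIR, a nuclear protein that holds iron. A separate stress pathway, the integrated stress response, slows general translation through phosphorylation of eIF2α and at the same time favours translation of ATF4. ATF4 is a transcription factor that drives genes of amino acid synthesis, amino acid import and tRNA charging, and genes such as CHAC1 and TRIB3 that later feed back on the response. Genes of mitosis form another group with common control, since many are repressed in resting cells and switched on late in the cell cycle through short promoter elements.

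After loess normalization within each array, the median log2 ratio of all measured genes was 0.01 at 48 h and 0.01 at 24 h. Loess itself brings this median close to mock, so the value says nothing about the quality of the array. With median centring in place of loess it was 0.44 at 48 h and 0.45 at 24 h. The SD over genes at 48 h was 0.17 after loess. For 300 probes printed as 10 spots each, the median SD between spots was 0.04 at 48 h and 0.05 at 24 h, which covers error within an array alone. Between the 2 bisamide arrays the SD of the difference over the 18378 genes measured on both was 0.12. KRT8, KRT18, EPCAM and VIM were measured, and KLK3 was above background in neither channel, as is known of PC3. Among markers of blood, vessel, connective and muscle cells, 6 were measured with raw signals up to 113, CD3E was above background in the treated channel alone, and VWF, COL3A1 and HBB were in neither channel.

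At 48 h, 18 genes stood more than 1.0 above mock on the log2 scale, 0.0946% of the genes measured, and 4 stood more than 1.0 below, 0.0210%. Of the 18, 9 belonged to lists of ATF4 targets, which held 44 of the 19020 genes measured. All 18 lay above their own miRNA range, as did 13.5% of all genes, though a choice by high ratio favours this. The excess of higher over lower genes depended on the background correction, with 49 higher and 63 lower under plain subtraction and 46 and 51 with an offset of 0, and with 62 and 129 in the scanner's own ratio. At 24 h, 35 genes had been above 1.0 and 3 below −1.0. The higher genes were past 1.0 at both times in 14 cases, at 48 h alone in 4 and at 24 h alone in 21. SLC7A5 was just inside the threshold at 1.02 and PTGFR just outside at 0.98. On the lower side a transcript known by an accession alone was just inside at −1.09 and MLLT11 just outside at −0.95.

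S100P, a small calcium-binding protein of epithelial tumours, had the highest ratio of the array. Its log2 ratio was 2.97 at 24 h and 2.83 at 48 h, a fold of 7.11 at 48 h, with a miRNA range of −1.29 to 0.08 and a median of −0.04. CHAC1, a glutathione-degrading enzyme, stood at 2.63 and then 2.17, against a miRNA range of −0.12 to 0.59. A second probe of CHAC1 had the same direction at 0.99 and then 0.73. ASNS, which makes asparagine, stood at 2.79 and then 1.86, and its miRNA range was −1.33 to 0.08. For each of these 3 genes both bisamide arrays lay above all 6 miRNA arrays.

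Further genes among the 10 highest were NUPR1 (1.82 and then 1.5), a stress-induced nuclear protein, JDP2 (1.71 and then 1.38), a leucine zipper repressor, and PSAT1 (1.70 and then 1.31), an enzyme of serine synthesis. ITGB4, the integrin β4 subunit of hemidesmosomes, was at 1.24 and then 1.42, with a miRNA range of −0.25 to 0.04. The remaining named ones, TFF2, APOL6 and TRIB3, are taken up with the genes that differed between the times. Also past 1.0 at 48 h were PHGDH (1.14), CBS (1.09), TFF3 (1.07), NNMT (1.03) and SLC7A5 (1.02). The other 3 were transcripts without a gene symbol. NNMT, which methylates nicotinamide, had the narrowest margin of these, with 0.92 at 24 h and a miRNA range that reached 0.88 on the miR-125b-1-3p array, the other array in PC3.

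**Figure D1:**
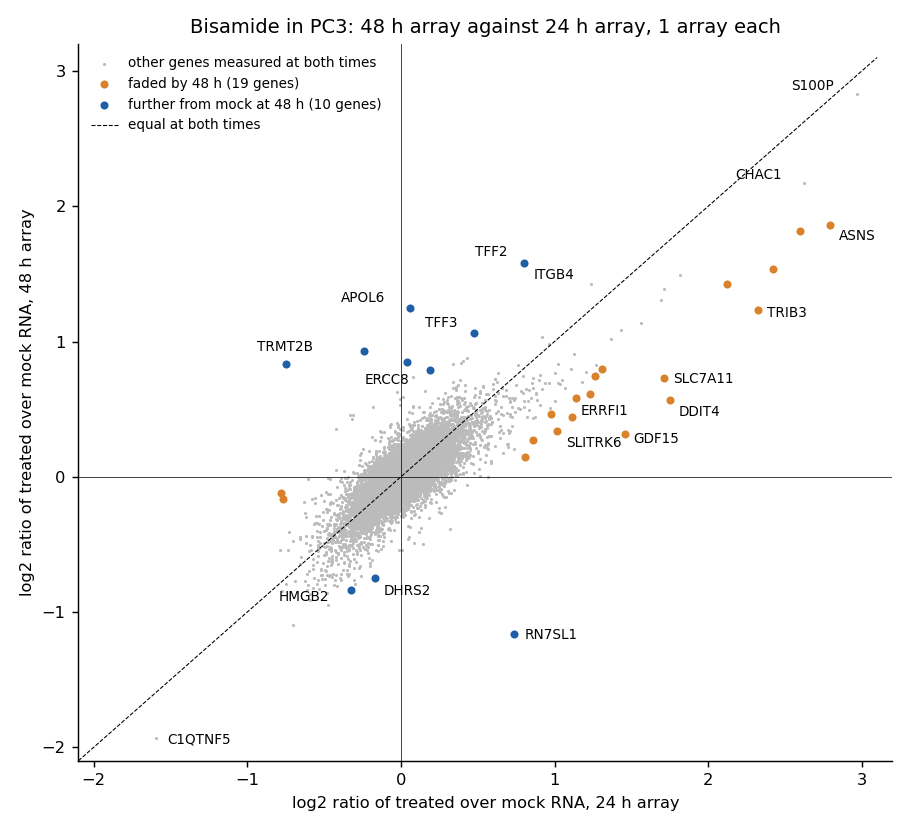
Each point is 1 gene measured on both bisamide arrays, with its log2 ratio of treated over mock RNA at 24 h on the horizontal and at 48 h on the vertical axis. Orange points are the 19 faded genes, blue points the 10 genes further from mock at 48 h, and most high genes lie below the dashed line of equal values, while S100P lies close to it at 2.97 and 2.83.

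The higher and the lower genes differed in how they stood at 48 h. Over genes with a mean log2 ratio above 0.5 over both times, 114 of 154 were nearer to mock at 48 h (74.0%). Over genes with a mean below −0.5, 20 of 97 were nearer (20.6%) and 77 were further from mock. Over all genes, 51.5% had the lower ratio at 48 h. Among the lower genes further from mock were 11 members of the mitosis list, which was every member of that list with a mean below −0.5. With a mean size over 0.75, 42 of 48 higher genes and none of 5 lower genes were nearer, which makes 79.2% of 53 genes in all. Measured from the median of all genes in place of mock, with a mean size over 0.5, 74.1% of higher and 19.5% of lower genes were nearer. By this measure the contrast held in direction under all other settings but median centring. There 43.2% of the higher and 52.3% of the lower genes were nearer.

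A gene was called faded when its log2 ratio was over 0.75 in size at 24 h and lay more than 0.5 nearer to 0 at 48 h. This held for 19 of 18378 genes, 0.103%, of which 17 were higher than mock. The ATF4 lists held 7 of the 19 and 44 of the 18378. The values that chose them are a description, and the count was 104 with plain background subtraction, 80 with an offset of 0 and 173 in the scanner's own ratio. ATF4 itself was just inside with a difference of 0.51 and ULBP1 just outside with 0.48. The largest difference was that of DDIT4, a brake on mTOR signalling, with 1.75 at 24 h and 0.57 at 48 h. On the miR-125b-1-3p array in PC3 it read 0.55, the top of its miRNA range. GDF15, a secreted stress cytokine, was at 1.46 and then 0.32. TRIB3, a pseudokinase that binds ATF4, was at 2.33 and then 1.23, and stayed above a miRNA range of −1.20 to −0.37.

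SLC7A11, the cystine transporter, went from 1.71 at 24 h to 0.73 at 48 h, and SLITRK6 from 1.02 to 0.34. A second probe of SLITRK6 read 0.17 and then 0.10, so the size of its 24 h value depended on the probe. ERRFI1, an inhibitor of the EGF receptor, was at 1.11 and then 0.45, inside a miRNA range of −0.47 to 0.80. Of the 17 faded genes that were higher than mock, 11 still stood above 0.5 at 48 h and 6 did not. AGR2, a disulfide isomerase (0.86 and then 0.27), and HERPUD1, a component of endoplasmic reticulum (ER) degradation (0.81 and then 0.15), were among those 6, and are named here after their values were seen. The 2 faded genes that were lower than mock were ARHGAP22 (−0.78 and then −0.12) and CCNE2 (−0.77 and then −0.16).

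The 3 ATF4 lists, which cover stress signalling, amino acid synthesis and amino acid transport, were lower as a group at 48 h. Their median was 0.82 over the 45 genes measured at 24 h and 0.54 over the 44 measured at 48 h, against medians of −0.34 to 0.03 on the miRNA arrays. All 44 stood above 0 at 48 h, where 10314 of all 19020 genes did. Of the 44, 37 stood above their miRNA range, where 13.5% of all genes lay above the range. The number above 0.5 was 33 of 45 at 24 h and 25 of 44 at 48 h, and none lay below −0.5. Over all genes, 1.05% at 24 h and 0.910% at 48 h lay above 0.5. The ratio was the lower one at 48 h in 41 of the 44. These lists were drawn up with earlier results of these arrays known, so their direction is a description.

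Stress signalling had a median of 0.92 at 24 h and 0.58 at 48 h, with 14 of 20 members above 0.5 at 48 h. The 4 highest, CHAC1, NUPR1, JDP2 and TRIB3, have been described. ATF4 was at 1.31 and then 0.79. Amino acid synthesis had a median of 0.71 and then 0.47, with 6 of 13 members above 0.5 at 48 h. After ASNS and PSAT1 came PHGDH, the first enzyme of serine synthesis, at 1.56 and then 1.14, and CBS, the first enzyme from homocysteine to cysteine, at 1.43 and then 1.09.

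Transport had a median of 0.74 and then 0.48, with 5 of 11 members above 0.5 at 48 h. SLC7A5, which imports leucine and other large amino acids, was highest at 1.37 and then 1.02, followed by SLC7A11 (0.73 at 48 h). SLC6A9, a glycine transporter, was at 0.71 and SLC1A5, which carries glutamine, at 0.68 at 48 h. None of these lists had a median at or below 0 at 48 h. Their order depended on the setting, since with median centring the shift at 48 h was 0.84 for synthesis and 0.72 for stress signalling.

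**Figure D2:**
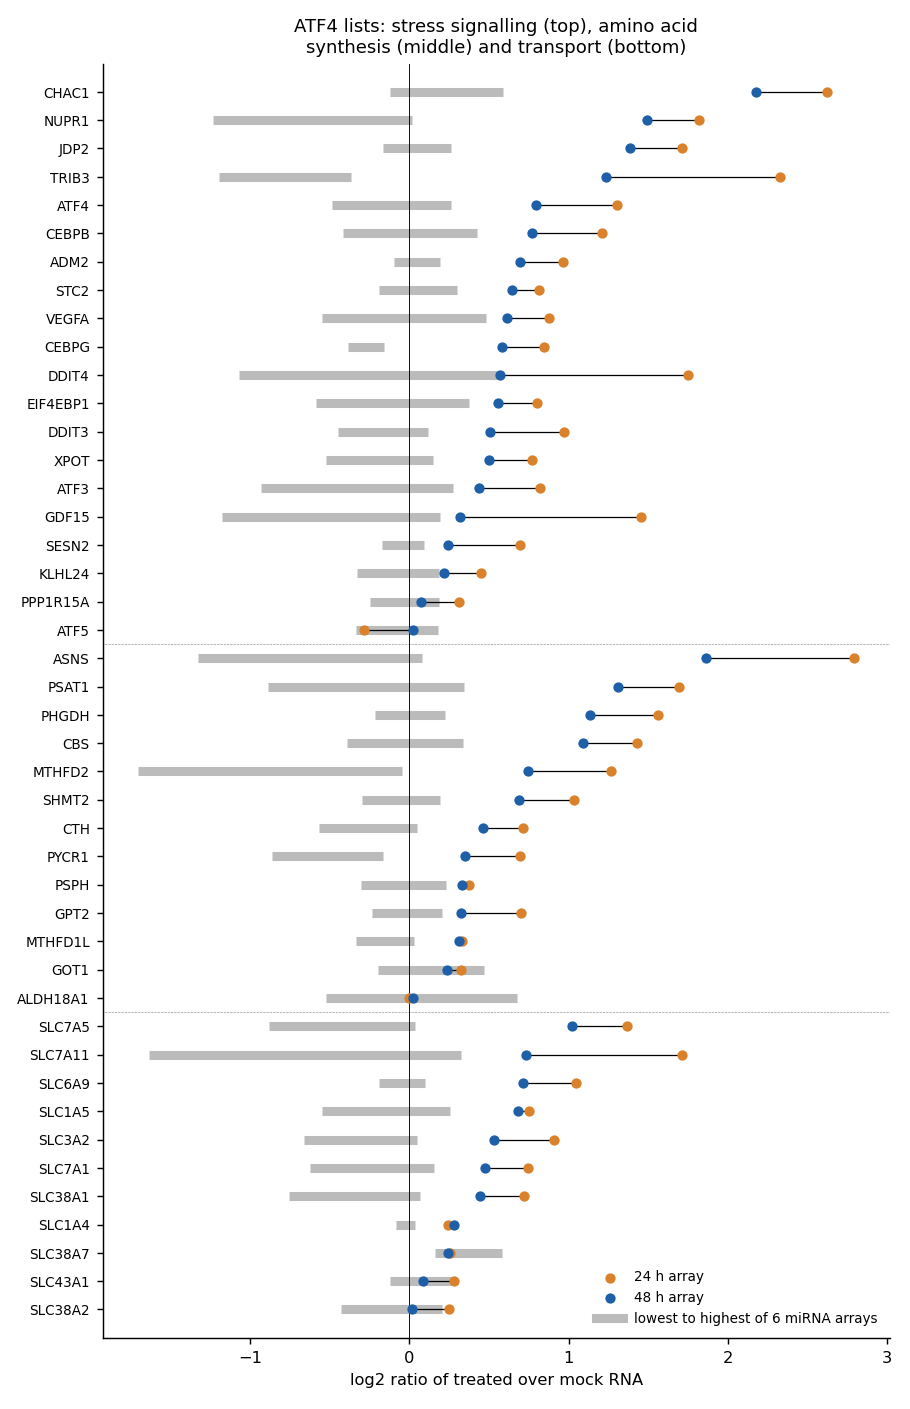
Each line is 1 member of the ATF4 lists measured at 48 h, with its log2 ratio of treated over mock RNA on the 24 h array (orange), on the 48 h array (blue) and from lowest to highest on the 6 miRNA arrays (grey bar). For 41 of the 44 genes the blue point lies left of the orange one, and all 44 blue points lie right of 0.

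ATF4 binds DNA with C/EBP proteins at an element whose core is TGATGNAA, and the promoters of ASNS and CHAC1 hold it. They are shown because both are ATF4 list members among the 3 highest genes at 48 h, with the 8-base match in capitals, 5′ to 3′ on the strand of the gene, from RefSeq promoters of GRCh38.p14. The ASNS site at chr7:97872458-97872487 (minus strand) lies 60 bases before the start of the gene. The CHAC1 site at chr15:40953251-40953280 (plus strand) lies 201 bases before it and reads TGATGCAA on the opposite strand.
ASNS: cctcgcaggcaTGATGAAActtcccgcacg
CHAC1: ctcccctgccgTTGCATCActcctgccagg

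Of the promoters in that table, 39 belonged to members of the ATF4 lists, and 7 of them held TGATGNAA on either strand within 250 bases before the start. This was 17.9%, against 3.19% of all 27305 promoters. The 7 were ASNS, ATF3, BCAT1, CHAC1, FGF21, GOT1 and MTHFD1L. FGF21 and BCAT1 were not measured at 48 h. Among the measured ones the ratios at 48 h ran from 0.24 for GOT1 to 2.17 for CHAC1. The letters were thus found in members with large and with small ratios above mock. Among the 18 genes past 1.0, 9 had a promoter in the table, and ASNS, CHAC1 and S100P held the letters. A match describes the letters and not a bound site.

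The aminoacyl-tRNA synthetases split by compartment. These enzymes charge tRNAs with amino acids, one set in the cytosol and another in mitochondria. The 20 cytosolic members had a median of 0.58 at 24 h and 0.41 at 48 h, with 12 and then 9 members above 0.5, and medians on the miRNA arrays of −0.24 to −0.07. The highest at 48 h were WARS (1.02 and then 0.83), GARS (1.1 and then 0.80), MARS (1.01 and then 0.77) and YARS (0.90 and then 0.72), for tryptophan, glycine, methionine and tyrosine. A second probe of MARS read 0.44 and then 0.39, so the size of its ratio depended on the probe. The 16 mitochondrial members had a median of 0.00 at 24 h and −0.04 at 48 h, and none was past 0.5 in either direction at 48 h.

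A smaller ratio can come from less treated RNA, from more mock RNA, or from both, and the 2 channels were therefore read apart. Channel levels are on a log2 scale after a normalization that gives all arrays the same mean level, and are compared here for 1 probe between arrays. Of the 17 faded higher genes, the treated channel was lower at 48 h in 14, where 50.9% of all genes had the lower treated channel at 48 h. In 15 the mock channel was higher at 48 h, and in 12 both held. The choice of genes whose ratio was smaller at 48 h favours both directions, so nothing is read from these counts against all genes. The larger part of the difference lay in the treated channel in 12 genes and in the mock channel in 5.

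TRIB3, DDIT4, ERRFI1 and MTHFD2 had most of the difference in the treated RNA. TRIB3 was lower by 0.84 in the treated channel and higher by 0.26 in mock. MTHFD2, a folate enzyme of mitochondria, differed by −0.52 in the treated channel and by 0.00 in mock. ASNS was divided evenly, with a treated change of −0.47 and a mock change of 0.46. GDF15, AGR2 and HERPUD1 were higher at 48 h in both channels. In GDF15 the mock level was 9.59 at 24 h and 11.59 at 48 h while the treated level went from 11.05 to 11.91, so the treated level was the higher one at 48 h although the ratio was smaller. SLC7A11 likewise differed more in mock (0.84) than in treated RNA (−0.14).

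**Figure D3:**
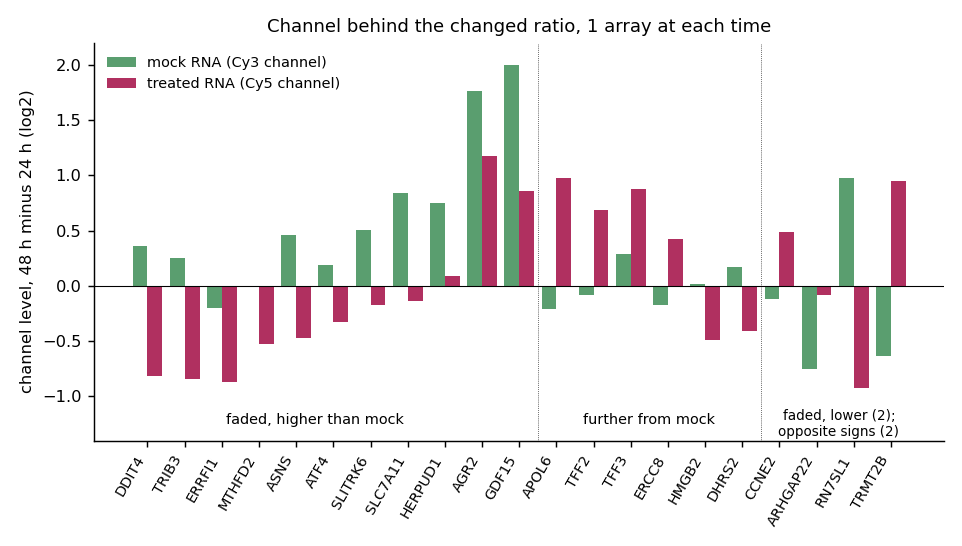
Bars give the log2 channel level on the 48 h array minus that on the 24 h array, for mock RNA (green, Cy3) and treated RNA (red, Cy5), for faded genes, for genes further from mock and for genes with opposite signs. DDIT4 and TRIB3 have their longer bar in the treated channel, at −0.81 and −0.84, and GDF15 in mock, at 2.00.

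The mock RNAs of the 2 arrays were themselves unlike for some genes. The mock channel differed by more than 0.5 in 240 of 18376 genes, with 172 higher and 68 lower at 48 h. In 234 of these 240 the treated channel had moved the same way, and in 224 the ratio moved by 0.5 or less. ID1, an inhibitor of differentiation factors, is the clearest example, chosen after its values were seen. Its mock level was 12.52 at 24 h and 9.67 at 48 h, its treated level 12.93 and 10.24, and its ratio 0.41 and then 0.58. The ratio itself differed by more than 0.5 in 55 genes, lower at 48 h in 34 and higher in 21. Time in culture and the separate cultures or hybridisations cannot be told apart here.

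Genes were called further from mock at 48 h when their ratio was over 0.75 in size at 48 h and more than 0.5 beyond the 24 h value. There were 10 such genes, 0.0544%, and 7 of them were higher than mock. None of the 10 belonged to any of the lists, but these hold 502 of the 43317 genes on the array, so nothing is read from this. HMGB2 was just inside with a difference of 0.51 and CIT just outside with 0.49. In all 7 higher genes the treated channel was higher at 48 h, and in 5 the mock channel was lower.

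TFF2 and TFF3 are trefoil peptides, small secreted proteins of mucous epithelia whose genes are neighbours on chromosome 21. The ratio of TFF2 was 0.80 and then 1.58, with a miRNA range of −0.75 to 0.35. Its treated level was higher by 0.69 at 48 h and its mock level differed by −0.09. TFF3 was at 0.47 and then 1.07, and a second measured probe read 0.25 and then 0.62. The third gene of the family, TFF1, did not meet the rule and was looked up afterwards, at 0.39 and then 0.84 with a miRNA range of −0.24 to 0.11. For all 3 trefoil genes the 48 h value was above the 24 h value and above all 6 miRNA arrays.

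APOL6, an apolipoprotein L of the cytosol, stood at 0.06 at 24 h and 1.25 at 48 h, against a miRNA range of −0.21 to 0.29. This probe was dim, with raw signals of 46.6 in Cy3 and 237 in Cy5, and 2 other APOL6 probes were not measured and read −0.04 and 0.34 at 48 h. ERCC8, a repair protein, was at 0.19 and then 0.79, but its second probe read −0.01 and then −0.03. The values of APOL6 and ERCC8 thus rest on 1 probe each. Lower than mock were HMGB2, a chromatin protein of proliferating cells, at −0.32 and then −0.83 with a miRNA range of −0.16 to 0.47, and DHRS2, a mitochondrial reductase, at −0.17 and then −0.75, inside a miRNA range that reached −0.79.

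Of the remaining 4 genes, 2 are known by an accession alone and the other 2 changed sign between the arrays. RN7SL1, the RNA of the signal recognition particle, was at 0.74 and then −1.16, with a miRNA range of −0.24 to 2.09, and was among the brightest probes with raw signals of 37215 and 38064 at 48 h. TRMT2B, a tRNA methyltransferase, was at −0.75 and then 0.84, while a second probe read 0.01 and then −0.31.

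Of the 4 genes below −1.0, C1QTNF5, a secreted C1q-like protein, was lowest at −1.93, and RN7SL1 and 2 transcripts known by an accession alone made up the rest. C1QTNF5 had stood at −1.59 at 24 h. It lay low on every array, with a miRNA range of −1.84 to −0.68 and a median of −1.57, so most of its ratio was also seen without bisamide. ACTL8, an actin-like protein, was above background in mock RNA only, at either time. Treated RNA was at least 2.67-fold lower at 24 h. At 48 h it was at least 3.21-fold lower. The fitted values were −1.51 and −1.80, inside its miRNA range of −1.96 to −1.03.

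Next lowest was MLLT11. It was at −0.48 and then −0.95. Several genes of cell division followed. BIRC5 (survivin), which works in chromosome segregation, was at −0.59 and then −0.91 with a miRNA range of −0.39 to 0.13. CDK1, the kinase of mitotic entry, was at −0.59 and then −0.87, and its second probe read −0.06 and then −0.24. SMC4, a subunit of condensin, was at −0.61 and then −0.84, and its second probe at −0.48 and then −0.81. All 4 genes were lower at 48 h than at 24 h on each measured probe.

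Of the 30 members of the mitosis list, 21 lay below −0.5 at 48 h and 5 at 24 h, and none was above 0.5. The count at 48 h depended on the loess step. Relative to the median of all genes it was 22, but 5 with median centring, and 18 to 28 under the other settings. Over all genes 0.883% lay below −0.5 at 48 h and 0.411% at 24 h. The median was −0.30 at 24 h and −0.56 at 48 h, with values at 48 h from −0.91 to −0.14. The list median on the 6 miRNA arrays was −0.42 to 0.12, and −0.12 on the one in PC3. The ratio was lower at 48 h in 29 of 30 members, and 21 lay below their miRNA range, as did 14.1% of all genes. Besides BIRC5 and CDK1, the lowest were MAD2L1, of the spindle checkpoint, at −0.61 and then −0.80, and CENPA, the histone of centromeres, at −0.39 and then −0.76.

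Both channels were lower at 48 h for all 30 mitosis genes. The median difference was −0.23 in mock and −0.49 in treated RNA, so relative to all genes the mock channel too was lower for this list on the 48 h array, and the treated channel by more.

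DNA replication genes had another course. Of 30 members, 9 lay below −0.5 at 24 h and 5 at 48 h, and the median was −0.40 at 24 h and −0.27 at 48 h. The ratio was higher at 48 h in 21 of 30. TK1 (−0.56 and then −0.75), TYMS (−0.65 and then −0.60), CDC45 (−0.60 at 48 h) and RRM1 (−0.58 at 48 h) were lowest at 48 h. CCNE2 and CCNE1, the cyclins of entry into S phase, had moved furthest toward mock, CCNE1 from −0.37 to 0.04. The list median lay inside the miRNA range of −0.54 to 0.06, and 2 members lay below their own range. The replication median was the lower of the 2 at 24 h and the higher at 48 h. After subtraction of the median of the miRNA arrays the list shifts at 24 h were −0.22 for replication and −0.27 for mitosis, so the order at 24 h depended on this background, while mitosis was lower at 48 h either way.

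**Figure D4:**
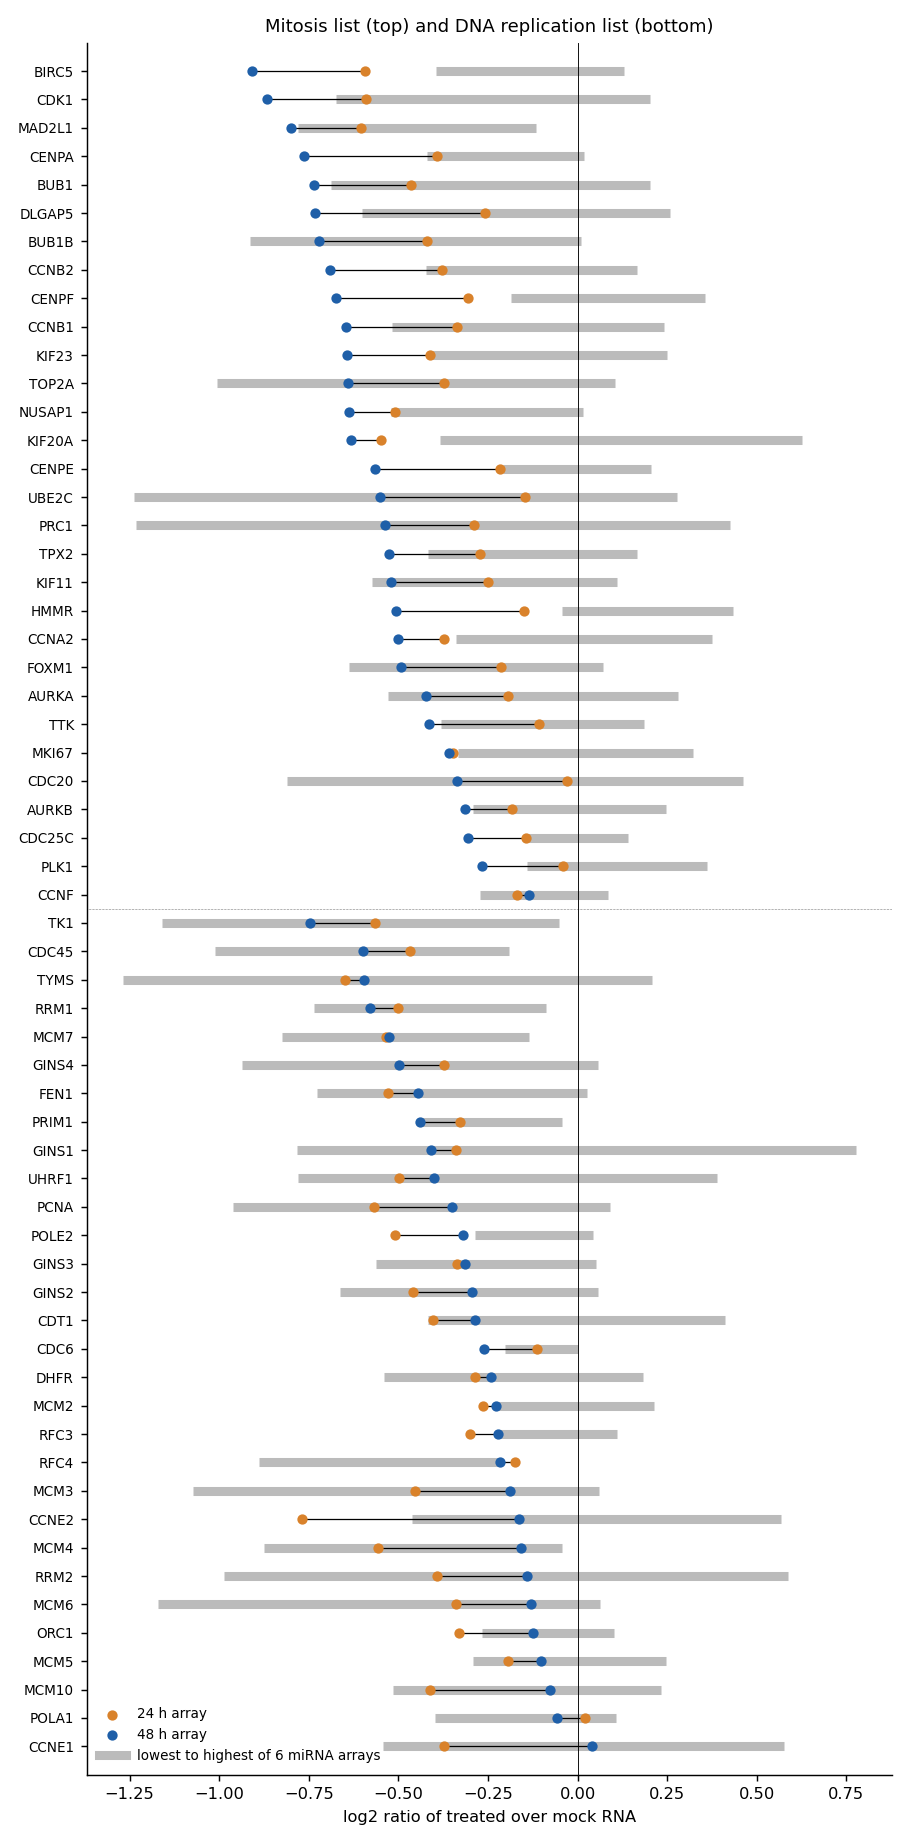
Each line is 1 gene of the mitosis list (top) or the DNA replication list (bottom), with its log2 ratio of treated over mock RNA on the 24 h array (orange), the 48 h array (blue) and from lowest to highest on the 6 miRNA arrays (grey bar). Blue lies left of orange for 29 of 30 mitosis genes and right of it for 21 of 30 replication genes.

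Many promoters of mitotic genes carry the cell cycle homology region, whose core is TTTGAA, close to the start of transcription. The letters TTTGAA are shown in capitals for 4 members with low ratios at 48 h, with 12 bases on either side. The sequences run 5′ to 3′ on the plus strand, the strand of each gene, in GRCh38.p14. They are CCNB2 (cyclin B2) at chr15:59105105-59105134, CDK1 at chr10:60778158-60778187, CENPA at chr2:26786026-26786055 and BUB1B (a checkpoint kinase) at chr15:40161034-40161063. The letters lie 23 bases before the start in CCNB2, 155 in CDK1, 12 in CENPA and 17 in BUB1B. The CDK1 match thus lies further from the start than the other matches shown. A match describes the letters and not a bound site or a working element.
CCNB2: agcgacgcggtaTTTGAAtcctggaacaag
CDK1: gagtataataaaTTTGAActgtgccaatgc
CENPA: cggagcgagcgaTTTGAAcgcgagcggcgc
BUB1B: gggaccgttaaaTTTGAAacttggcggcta

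The ratios of these 4 at 48 h were −0.69, −0.87, −0.76 and −0.72. Of 25 mitosis genes with a promoter in the RefSeq table, 14 held TTTGAA on either strand within 250 bases before the start (56.0%), against 1 of 25 replication genes, RRM1, and 13.6% of all promoters. Within the mitosis list the letters did not mark the lower genes: they were found in 10 of 18 members below −0.5 and in 4 of 7 of the others. CCAAT, another element of these promoters, was found in 21 of 25 mitosis genes, 15 of 25 replication genes and 33.0% of all promoters.

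HSF1 had a log2 ratio of 0.03 at 24 h and 0.05 at 48 h. PIR was at −0.45 and then −0.62, inside a miRNA range of −0.73 to 0.66, and its mock channel differed by −0.01 between the arrays and its treated channel by −0.18. With median centring in place of loess, PIR was at 0.16 at 48 h, below the median of all genes, which stood at 0.44 there.

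The chaperones that HSF1 drives were near mock at 48 h. Of 25 measured members none was past 0.5 in either direction at 48 h, and 1, HSPA1A, was below −0.5 at 24 h. The median was −0.19 at 24 h and −0.08 at 48 h, and the ratio was higher at 48 h in 19 of 25. Below 0 at 48 h were 19 of the 25, against 8706 of all 19020 genes. Relative to all genes the list shift at 48 h was −0.09, but 0.24 with median centring. HSPA1A, the inducible HSP70, read −0.60 and then −0.02, and is named after its values were seen. The lowest members at 48 h were HSPD1 (−0.40) and its partner HSPE1 (−0.38) of mitochondria, with CACYBP (−0.38) and HSPA4L (−0.26). Other measured probes of CACYBP read −0.14 and −0.17 at 48 h. In both channels the list was lower on the 48 h array, by a median of −0.34 in mock and −0.19 in treated RNA. The 88 measured members of the heat stress pathway list of the study had a median of −0.11 and then −0.07, and 65 lay below 0 at 48 h. Relative to all genes the median was −0.08 at 48 h and 0.13 with median centring. EEF1A1 was at 0.57, and RPA3 at −0.66 and NDC1 at −0.50 were the members below −0.5.

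Chaperones of the ER went the other way by a small amount, with a median of −0.01 at 24 h and −0.10 at 48 h over 22 genes. At 24 h 3 lay above 0.5 and none below −0.5. At 48 h none lay above 0.5 and 3 below −0.5. The 3 low ones were HSP90B1 (−0.48 and then −0.73), PDIA4 (−0.55) and MANF (−0.36 and then −0.52), and SDF2L1 followed at −0.38. A second probe of HSP90B1 read −0.23 and then −0.40, so its place below −0.5 depended on the probe. Relative to all genes the shift at 48 h was −0.11, and 0.13 with median centring. XBP1, a transcription factor of ER stress, was at 0.59 and then 0.10. Genes of cholesterol synthesis had a median of −0.16 and then −0.29 over 25 members, with 4 below −0.5, 15 below their miRNA range and the lower ratio at 48 h in 19 of 24. Relative to all genes the shift was −0.17 and then −0.30, but −0.14 and then −0.13 with median centring. There the ratio was lower at 48 h in 16 of 24. INSIG1, which holds back the sterol regulators, was at −0.62 and then −0.77, SQLE at −0.70, ACAT2 at −0.68 and CYP51A1 at −0.22 and then −0.51. Both channels were higher at 48 h for this list, by a median of 0.23 in mock and 0.14 in treated RNA, so the lower ratio went with a larger difference in mock.

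**Figure D5:**
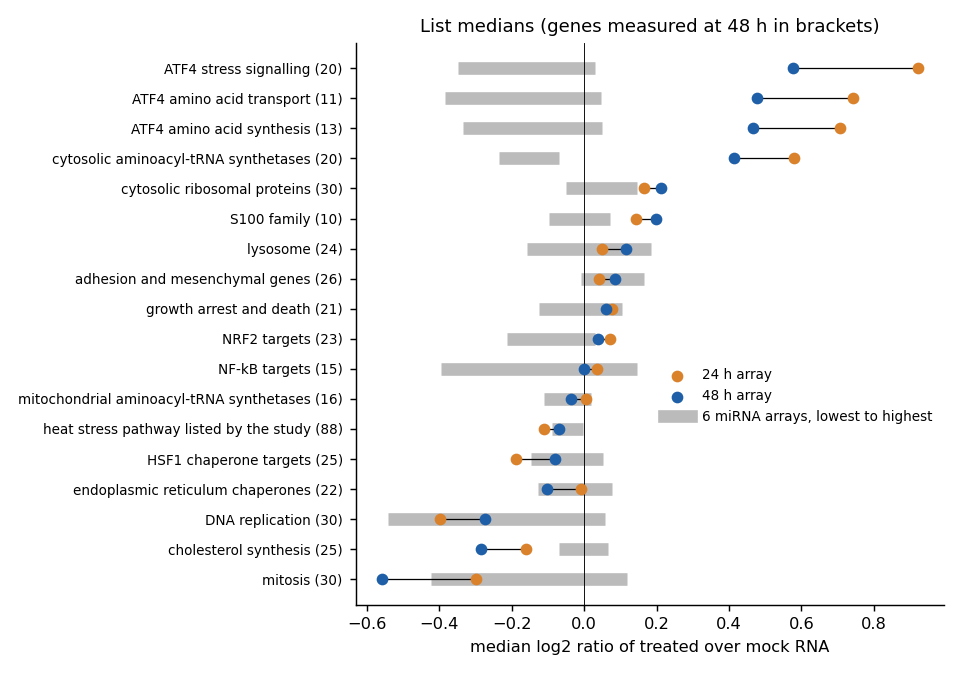
Each line is 1 gene list, with the median log2 ratio of treated over mock RNA of its measured members at 24 h (orange) and 48 h (blue), and the lowest to highest list median over the 6 miRNA arrays (grey bar). The ATF4 lists lie nearer to 0 at 48 h, with stress signalling at 0.92 and then 0.58, and the mitosis list further from 0, at −0.30 and then −0.56.

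Targets of NRF2, the oxidative stress factor, had a median of 0.07 and then 0.04 over 23 members. FTH1, the ferritin heavy chain, was at 0.76 and then 0.83, level with the 0.83 at the top of its miRNA range, and ABCC3, an exporter, at 0.86 and then 0.69. A second probe of ABCC3 read 0.79 and then 0.93, so its direction between the times depended on the probe. SQSTM1 stood at 0.40. The NF-kB list had a median of 0.03 and then 0.00 over 15 members, with CXCL1 at −0.77 as the only one past 0.5. A second probe of CXCL1 read −0.21 and then −0.39, so its place past 0.5 depended on the probe. The list of growth arrest and death genes was at 0.08 and then 0.06 over 21 members, and CDKN2C (−0.54) and MYC (−0.15 and then −0.51) were its only members past 0.5.

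Of the S100 family, 10 of 19 genes were measured, and S100P and S100A2 (0.38 and then 0.59) were above 0.5. The family median was 0.14 and then 0.20. All 30 ribosomal protein genes stood above 0 at 48 h, where 10314 of all 19020 genes did. Their median was 0.17 and then 0.21 with none past 0.5. Relative to all genes the shift of these 30 genes at 48 h was 0.20, but 0.85 with median centring and 0.11 in the scanner's own ratio. Above their miRNA range were 19 of them, and 13.5% of all genes. The adhesion list had a median of 0.04 and then 0.09 over 26 members, and the collagenase MMP1 (1.02 and then 0.70) was its only member past 0.5. Lysosome genes had a median of 0.05 and then 0.12 over 24 members, with the protease CTSB at 0.24 and then 0.58, and GLA, a galactosidase, at −0.50.

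Of the 11 downstream genes that the study lists, which were chosen partly on these arrays and are no independent evidence of a direction, 3 were measured at 24 h, with a median of −0.78, and 4 at 48 h, with a median of −0.82. At both times 3 lay below −0.5. On the miRNA arrays the list median was −1.06 to −0.59, so both bisamide values lay within the range read without bisamide.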

How the data were processed

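RNA of treated and mock cells was hybridised together on two-colour arrays, 8 in all and 1 in each group, on 1 slide read in 1 scan. Per the file headers, the authors used Agilent Feature Extraction 11.5.1.1 to obtain mean spot and median local background intensity for each channel, not normalized, and a deposited log10 ratio made from its own processed signals, used here as an alternative. File coordinates are those of GRCh37. Intensities were corrected with normexp (offset of 50) in limma 3.58.1 under R 4.3.3, normalized by loess within each array, and turned into log2 ratios of Cy5 (treated) over Cy3 (mock). The offset draws dim genes toward 0. Controls were left out after background correction, outlier spots (147 on the 48 h array) were dropped, and repeat spots were averaged. Each of 43317 genes took the probe of 58201 with the highest mean intensity over 8 arrays. Channel levels are from loess followed by Aquantile. For a gene above background in 1 channel, an at least N-fold value compares that channel with the dim channel, raised to the lowest signal well above background where it fell short, and is open to dye bias.

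Genes were named by a rule: PIR, HSF1, ACTL8 and C1QTNF5 always, the 10 highest and 8 lowest at 48 h that are not unnamed transcripts, the 8 largest differences among faded and among further genes, up to 4 per list, and genes past 0.5 in opposite directions. AGR2, ATF4, CCNE1, CCNE2, HERPUD1, HSPA1A, ID1, IL33, LINC00411, MTHFD2, NNMT, PI3, TCN1, TFF1, XBP1 and the genes named at a threshold or for a promoter match fall outside this rule and were chosen after their values were seen. Some low members that the rule allows are given by counts. The members and the 21 lists were chosen with earlier results of these data known. Of 504 list symbols, 502 were on the array, AKR1C2 and CD68 were unmatched, and 2 went by a newer symbol (CXCL8, CTSL). The steps were tested on simulated data. No p-value was computed. Precision is limited by the number of arrays. Some marker genes are not reported here.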

Additional observations from a re-analysis of the deposited data

Results flagged for a closer look

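RN7SL1 and TRMT2B stood past 0.5 in opposite directions on the bisamide arrays. RN7SL1 had a log2 ratio of 0.74 on the 24 h array and of −1.16 on the 48 h array, with its mock channel higher by 0.97 and its treated channel lower at 48 h, by −0.93. TRMT2B had −0.75 and then 0.84, and its second probe did not share this. With 1 array at each time the difference was not tested for either gene.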

How the results depend on the processing

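No paired analysis was possible because there was 1 array per group, and no array could be left out. The counts and medians below are for genes lower at 48 h, higher at 48 h, faded and further from mock (4, 18, 19 and 10 as reported), the percent nearer to mock (79.2) and the ATF4 shift at 48 h and 24 h (0.53 and 0.81). Plain background subtraction gave 63, 49, 104 and 84 genes, 59.9% and shifts of 0.69 and 1.06. An offset of 0 gave 51, 46, 80 and 64 genes, 59.2% and 0.68 and 1.06. Without background correction 13 genes were lower, 29 faded and 21 further, and the 24 h shift was 0.99. The scanner's own ratio gave 129, 62, 173 and 160 genes, 55.4% and 0.69 and 1.11. Median centring in place of loess gave 1, 934, 36 and 25 genes, 51.8% and 0.72 and 1.08. Subtracting the median of the miRNA arrays gave shifts of 0.66 and 0.997, and genes measured in at least 1 channel a 48 h shift of 0.49. A threshold of 1.5 left 1 lower and 6 higher genes, a difference of 0.3 gave 42 faded and 26 further, and a mean size of 0.5 gave 53.4%. Of 61 such values 21 stayed within their limits. All 18 higher, 19 faded and 10 further genes were kept under plain subtraction, no correction, an offset of 0 and the scanner's ratio, while median centring kept 18, 16 and 7, the mean over probes 17, 16 and 7, and subtraction of the miRNA median 17, 19 and 8. Of the 4 lower genes median centring kept 1 and subtraction of the miRNA median 3. The cause of these differences was not tested.

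Median centring moved the median of all genes to 0.44 at 48 h and 0.45 at 24 h, and turned 17 of 831 values of named genes: ACAT2 0.042, BIRC5 0.062, CDC45 0.15, CDKN2C 0.084, CYP51A1 0.22, GLA 0.31, HSP90B1 0.28, MANF 0.39, MYC 0.32, NDC1 0.21, PDIA4 0.16, PIR 0.16, RPA3 0.15, RRM1 0.21, SQLE 0.084, TK1 0.29 and TYMS 0.33. All 17 stayed below that median. Of list shifts over 0.1 in size it turned 1, that of the ER chaperones (0.13 in place of −0.11), and among smaller ones those of the HSF1 chaperones (0.24), the heat stress list (0.13), the mitochondrial synthetases (0.13), the NF-kB list (0.06) and the markers of other cell types (−0.29). The mitosis shift at 48 h was −0.57 and −0.37 with median centring, and the median difference between the times was −0.27 to −0.33 for mitosis and −0.32 to −0.35 for the ATF4 lists under all settings run for the lists. These differences, and the split by direction of genes nearer to mock, were chosen after seeing the data. Relative to the median of all genes that split was 74.1% of higher and 19.5% of lower genes, and 59.2% to 74.3% and 19.8% to 42.2% under settings other than median centring.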

Other observations

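LINC00411, a long non-coding RNA, was above background in the treated channel alone at 48 h and in neither channel at 24 h. It was at least 2.57-fold higher in treated RNA at 48 h, with a fitted log2 ratio of 1.46 and a miRNA range of −0.06 to 0.02. It was the only gene measured in Cy5 alone whose bound passed 1.0 at 48 h, out of 3628, and ACTL8 was the only one measured in Cy3 alone whose bound passed −1.0, out of 96.

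IL33, PI3 and TCN1 are in no list, had a higher ratio at 48 h than at 24 h, and were chosen for this after their values were seen. IL33, an epithelial alarm cytokine, was at 0.41 and then 0.86 with a miRNA range of −0.03 to 0.04. PI3 (elafin), a protease inhibitor, was at 0.34 and then 0.83, inside a miRNA range that reached 0.85, and both its channels were lower at 48 h, by −0.90 in mock and −0.41 in treated RNA. TCN1, a vitamin B12 carrier, was at −0.31 and then 0.46, with its mock level higher by 1.33 and its treated level by 2.10 on the 48 h array.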
